A study of Homo sapiens with 4 samples.

Results

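The genes of glycosphingolipid synthesis were followed in 2 ovarian cancer cell lines with and without a TET1 expression plasmid, starting from A4GALT, the gene of globotriaosylceramide synthase. The set holds 10 genes of the 26506 gene symbols in the expression tables. They were listed by symbol as A4GALT, UGCG, B4GALT5, B4GALT6, ST3GAL5, B4GALNT1, B3GALNT1, ST8SIA1, GBGT1 and UGT8, and all 10 were found in the table of each cell line. A4GALT was chosen by measured values, namely its change between control and TET1 libraries, which lay above the median change of all genes in both lines, so that change is given as a description.

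RNA sequencing covered HeyC2 and SKOV3, established lines from human ovarian carcinomas. Each line had 1 library of control cells, which received the empty plasmid and are labelled wild-type, and 1 library of TET1-reprogrammed cells, which received pCMV6/TET1 with full-length TET1 under a viral promoter. All 4 groups received 3 μg of plasmid by lipofection and were kept in Geneticin at 400 μg/ml. Whether the selected cells were a pool or a clone is not given in the sources used here. With 1 library per condition, no difference had a replicate check and no p-value was computed.

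Glycosphingolipids are lipids of the outer plasma membrane in which a sugar chain is carried by ceramide. UGCG adds glucose to ceramide, B4GALT5 and B4GALT6 add galactose to make lactosylceramide, and the chain then takes a branch: A4GALT opens the globo-series, ST3GAL5 makes the ganglioside GM3, and B4GALNT1 opens the asialo- and complex gangliosides. Globosides and gangliosides are among the best known glycolipid antigens of tumour cells, and TET1 is an enzyme that oxidises methylated cytosine in DNA.

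The values were FPKM, fragment numbers scaled to transcript length and to library size. In each table the TET1 column carried a constant, 3.23 for HeyC2 and 1.35 for SKOV3, which made GAPDH equal in both columns, and it was divided out. Without it GAPDH stood at 5417 FPKM in the HeyC2 control and 1675 after TET1, and at 2248 and 1671 in SKOV3. FPKM below are on this unscaled basis unless they are called deposited. The estimated depth was 6610000 to 7480000 fragments per library. TET1 was at 0.20 FPKM in the HeyC2 control and 0.52 in TET1-reprogrammed HeyC2, and at 0.43 and 1.80 in SKOV3. The TET1 library was the higher one in both lines, and in HeyC2 the gene did not reach a mean of 1 FPKM. Across all 26506 genes, log2(FPKM + 1) correlated at Pearson's r = 0.98 between the HeyC2 libraries, 0.96 between the SKOV3 libraries and 0.88 to 0.90 between the lines. The epithelial markers KRT8 and KRT18 and the Müllerian factor PAX8 were at 74.6 FPKM or more in all 4 libraries, WT1 and MUC16 stayed under 1 FPKM, and CDH1 was listed at 0 in both HeyC2 libraries. Of the leukocyte markers, PTPRC was at most 0.28 FPKM, CD14 ran from 0.33 to 0.52 FPKM, and CD3E was listed at 0 in all 4 libraries. The 3 endothelial markers summed to 19.4 and 94.8 FPKM in HeyC2, nearly all of it CDH5, and to 0.26 and 0.36 in SKOV3, with PECAM1 at most 0.09 in any library. Of the 4 fibroblast and mesenchymal markers, VIM was at 7496 FPKM in the HeyC2 control and 2927 after TET1 and at 1223 and 835 in SKOV3, DCN was at most 0.08, and COL1A1 was at 27.7 FPKM in TET1-reprogrammed SKOV3 and at most 1.76 elsewhere. Keratins differed between the libraries of both lines, with KRT7 at 290 FPKM in the HeyC2 control and 1125 after TET1 and at 1537 and 22.0 in SKOV3, where KRT19 was at 255 and 0.46. The part of these marker differences in the results was not tested.

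The change of a gene was log2((TET1 + 1)/(control + 1)), from which the median of that change over all genes with a mean of at least 1 FPKM in the line was subtracted. That median was 0.06 in HeyC2 over 11894 genes and 0.19 in SKOV3 over 13013 genes, and on the deposited scale it was 1.61 and 0.59. A gene at least 1.5-fold above this median is called higher and one at least 1.5-fold below it lower. By this rule 12.5% of the genes measured in HeyC2 were higher and 9.17% lower, and 20.7% of those in SKOV3 were higher and 18.2% lower. Scaling by the upper quartile in place of the median left 27.9% higher and 12.1% lower in SKOV3. The intervals given with ratios are 95% Clopper-Pearson intervals on estimated fragment numbers and cover counting error only, not the spread between cultures. In bulk RNA, fewer cells that express a gene and less RNA per cell cannot be told apart.

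A4GALT was at 5.34 FPKM in the HeyC2 control and 12.5 in TET1-reprogrammed HeyC2. In SKOV3 it was at 6.09 FPKM in the control and 21.2 after TET1. Both TET1-reprogrammed libraries were thus above both controls, which were within 1 FPKM of each other. The deposited values after TET1 were 40.4 FPKM in HeyC2 and 28.6 in SKOV3, an order that the GAPDH constants had turned round. The FPKM correspond to about 76.8 and 161 fragments in HeyC2 and 84.3 and 269.9 in SKOV3. The ratio of TET1 to control was 2.34 in HeyC2 (counting interval 1.76 to 3.09) and 3.49 in SKOV3 (2.73 to 4.53). Relative to the all-gene median, A4GALT was 2.05-fold higher in HeyC2 (log2 change 1.03) and 2.75-fold higher in SKOV3 (1.46). This relative change exceeded that of 96.2% of the genes measured in HeyC2 and 95.1% of those in SKOV3. Among all genes by FPKM, A4GALT stood at percentile 69.0 in the HeyC2 control, 79.2 after TET1, 68.6 in the SKOV3 control and 83.9 after TET1.

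**Figure D1:**
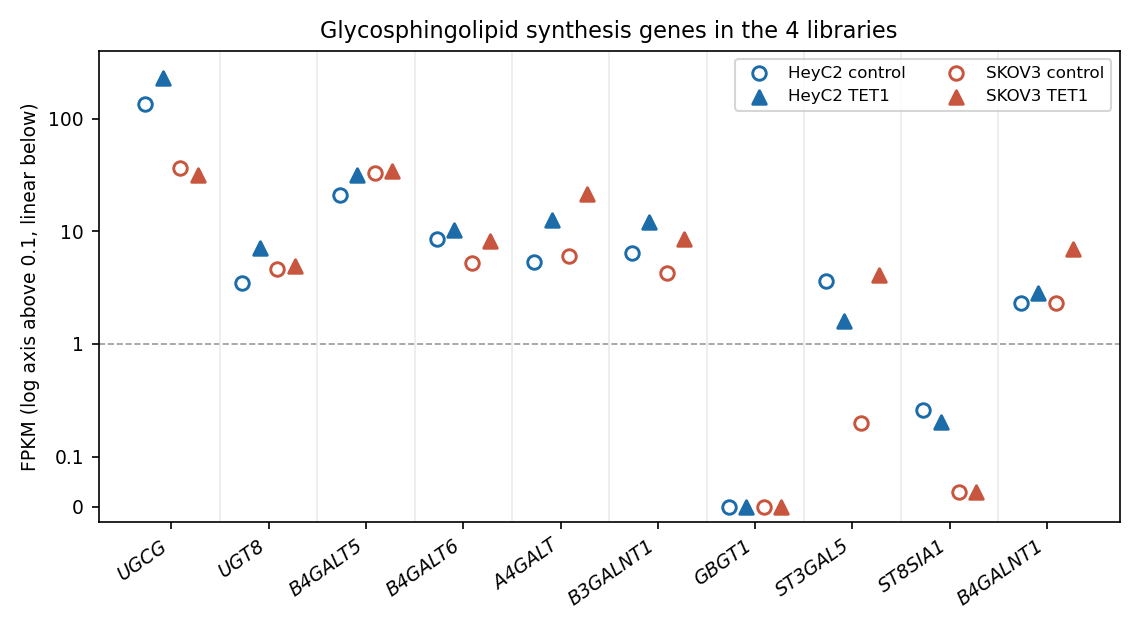
FPKM of the 10 genes in the 4 libraries, with the GAPDH constant divided out of the TET1 libraries, on an axis that is logarithmic above 0.1 and linear below; open circles are controls, triangles TET1-reprogrammed cells, and the dashed line marks 1 FPKM. A4GALT and B3GALNT1 lie above their controls in both lines, ST3GAL5 lies below its control in HeyC2 and above it in SKOV3, and GBGT1 is listed at 0 in all 4 libraries.

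B3GALNT1, which adds N-acetylgalactosamine to the product of A4GALT to make globoside, was at 6.41 FPKM in the HeyC2 control and 12.1 after TET1. In SKOV3 it was at 4.26 and 8.63 FPKM. It was the other gene of the set that was higher in both lines, by 1.70-fold in HeyC2 (counting interval of the unadjusted ratio 1.54 to 2.33) and 1.60-fold in SKOV3 (1.57 to 2.62), relative to the all-gene median. B3GALNT1 shares 190 exonic bases with NMD3 on the opposite strand. If strand was not used in counting, reads there could be divided between these genes only by estimation. The sources used here do not say whether strand was used. NMD3 had a relative log2 change of 0.49 in HeyC2 and 0.01 in SKOV3. GBGT1, whose enzyme would extend globoside to the Forssman glycolipid, was listed at 0 in all 4 libraries. Of the 8 genes of the set measured in both lines, A4GALT and B3GALNT1 were thus higher in both. Over all 11134 genes measured in both lines the share was 3.56%, and nothing is read from the count of 2 beside it, since A4GALT was chosen for this change.

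ST3GAL5, the GM3 synthase gene, was at 3.61 FPKM in the HeyC2 control and 1.60 after TET1. In SKOV3 it was at 0.20 FPKM in the control and 4.07 after TET1. The lines therefore started at different levels and moved in opposite directions, with HeyC2 lower at 0.54 times the all-gene median and SKOV3 higher by 3.70-fold. The unadjusted ratio was 0.44 in HeyC2 (counting interval 0.31 to 0.63) and 20.4 in SKOV3 (9.14 to 57.1), where the control value rests on about 6.04 fragments. In SKOV3 the gene reached the mean of 1 FPKM only through the TET1-reprogrammed library, so it could pass there only by being higher. With a pseudocount of 0.01 FPKM its relative log2 change in SKOV3 was 4.07 instead of 1.89. Among the 11134 genes measured in both lines, 1.38% were lower in HeyC2 and higher in SKOV3 and 1.77% the reverse, and ST3GAL5 was the single gene of the set to go opposite ways.

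B4GALNT1, the GM2/GD2 synthase gene, was at 2.30 FPKM in the HeyC2 control and 2.82 after TET1, a relative log2 change of 0.15 that stayed inside the limits. In SKOV3 it was at 2.32 FPKM in the control and 7.01 after TET1, and was higher by 2.11-fold relative to the all-gene median. The controls were nearly equal, and the SKOV3 TET1 library stood above the other 3. B4GALNT1 shares 2136 exonic bases with SLC26A10 on the opposite strand, and SLC26A10 itself went from 0.19 to 2.75 FPKM in SKOV3 and from 0.12 to 0.07 in HeyC2. Without strand, reads from the overlap can be divided between these genes only by estimation, and the part of such reads in the B4GALNT1 value was not tested. ST8SIA1, whose enzyme converts GM3 to GD3, was at 0.26 and 0.20 FPKM in HeyC2 and at 0.03 in both SKOV3 libraries. It did not reach the mean of 1 FPKM in either line, and about 12.9 to 18.6 fragments in HeyC2 and 1.87 to 2.06 in SKOV3 stood behind these values.

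UGCG, the glucosylceramide synthase that supplies all the branches above, was the most abundant gene of the set in HeyC2, at 135 FPKM in the control and 228 after TET1. In SKOV3 it was at 36.8 and 31.8 FPKM. It was higher in HeyC2 by 1.62-fold relative to the all-gene median, and in SKOV3 it lay at 0.76 times the median, inside the limits. UGT8, which adds galactose instead of glucose to ceramide, was at 3.46 and 7.05 FPKM in HeyC2 and at 4.64 and 4.91 in SKOV3. It too was higher in HeyC2, by 1.73-fold, and inside the limits in SKOV3, at 0.92 times the median. The genes of both enzymes that glycosylate ceramide were thus higher in HeyC2 and not in SKOV3. The difference between the lines was not tested.

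B4GALT5, the main lactosylceramide synthase gene in many tissues, was at 20.8 and 31.3 FPKM in HeyC2 and at 33.2 and 34.1 in SKOV3. B4GALT6, which codes for the second lactosylceramide synthase, was at 8.55 and 10.3 FPKM in HeyC2 and at 5.19 and 8.21 in SKOV3. Neither gene passed the 1.5-fold limit in either line. B4GALT5 in HeyC2, at 1.42-fold, came nearest to the limit without passing it, and B3GALNT1 in SKOV3, at 1.60-fold, passed it by the least. B4GALT5 did pass in HeyC2 on the deposited scale (relative log2 change 0.62) and after correction for GC content and length (0.59).

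**Figure D2:**
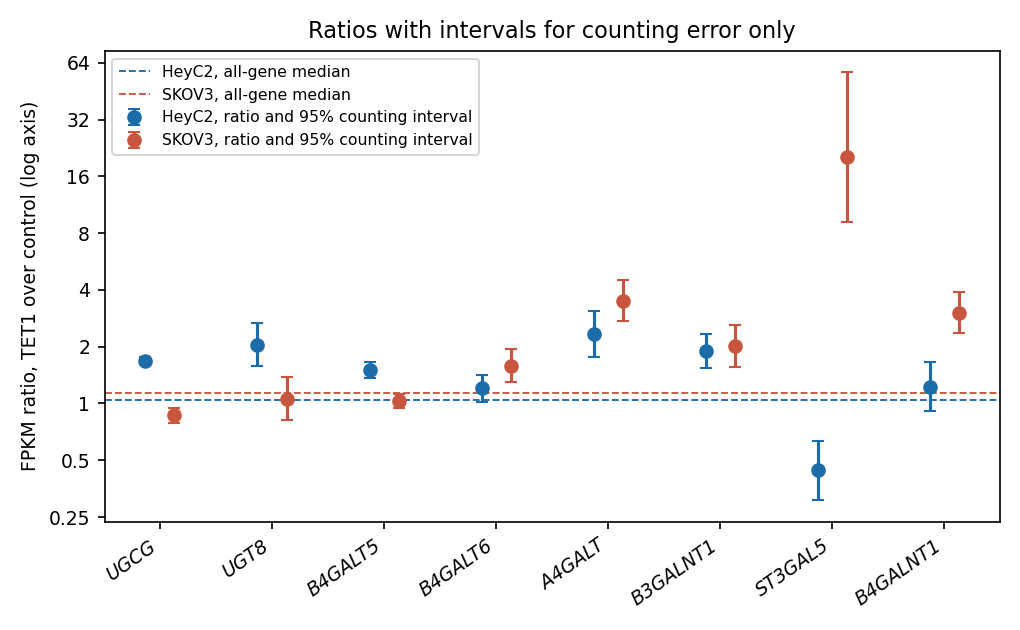
FPKM ratio of TET1 to control for the 8 genes that reached a mean of 1 FPKM, on a log axis, in HeyC2 (blue) and SKOV3 (red); bars are 95% intervals for counting error on estimated fragments and dashed lines the all-gene median change of each line as a ratio. That median was taken with 1 FPKM added to each value, and the plotted ratios were not. The A4GALT and B3GALNT1 intervals lie above the all-gene median in both lines, and the ST3GAL5 intervals lie on opposite sides of it.

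Of the 10 genes, 8 passed the filter in each line, the exceptions being ST8SIA1 and GBGT1. In HeyC2, A4GALT, UGCG, UGT8 and B3GALNT1 (4 of 8) were higher and ST3GAL5 (1 of 8) was lower, beside 12.5% and 9.17% of all genes, and the median relative log2 change of the 8 genes was 0.60. In SKOV3, A4GALT, ST3GAL5, B4GALNT1 and B3GALNT1 (4 of 8) were higher, 0 of 8 were lower, beside 20.7% and 18.2% of all genes, and the median was 0.53. The corresponding median of all genes is 0 by construction. These counts include A4GALT, which was chosen for its change, and in SKOV3 ST3GAL5, which had to be higher to pass, so they are descriptions and not evidence on the set.

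**Figure D3:**
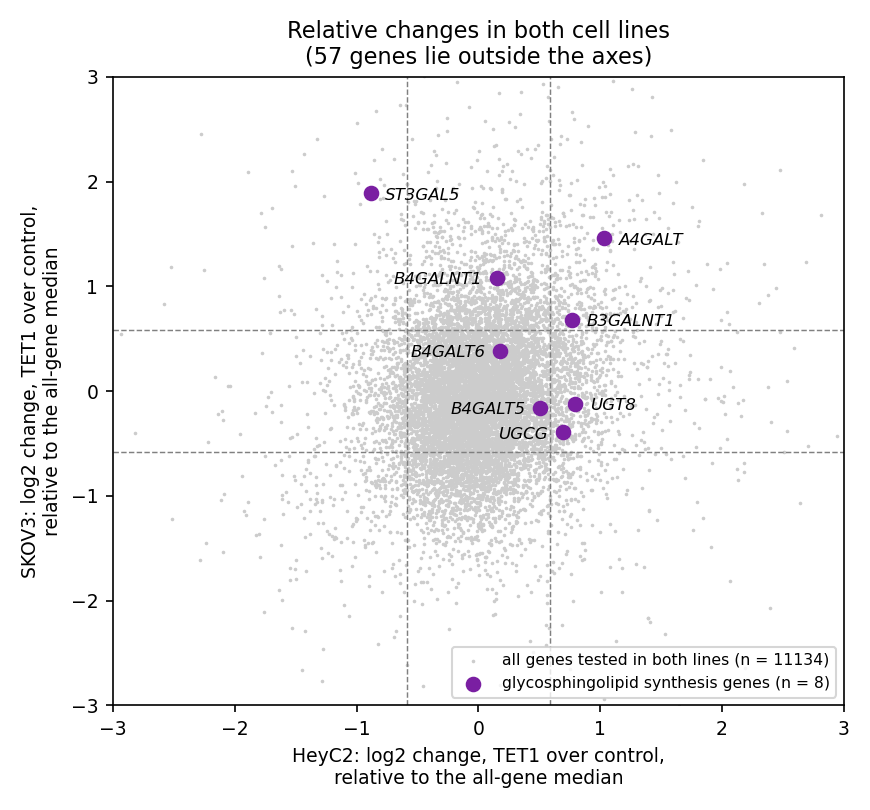
Relative log2 change, TET1 over control, in HeyC2 (x axis) and SKOV3 (y axis) for 11134 genes with a mean of at least 1 FPKM in each line (grey, of which 57 lie outside the axes) and the 8 glycosphingolipid synthesis genes among them (purple); dashed lines mark 1.5-fold. A4GALT and B3GALNT1 lie in the upper right field, and ST3GAL5, at -0.88 and 1.89, lies in the upper left field.

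The enzymes of A4GALT and ST3GAL5 both use lactosylceramide, so the ratio of their FPKM was taken within each library, where the GAPDH constant cancels. This ratio was chosen after the values were seen. In HeyC2, A4GALT was 1.48 times as high as ST3GAL5 in the control (counting interval 1.10 to 2.00) and 7.80 times as high after TET1 (5.58 to 11.1). In SKOV3 the ratio was 30.4 in the control (13.5 to 85.6) and 5.22 after TET1 (4.17 to 6.56). The ratio was therefore 5.28 times as large after TET1 in HeyC2 and 5.84 times as large in the control in SKOV3, and the TET1-reprogrammed libraries of the lines lay closer together than the controls did. With 1 FPKM added to each gene, an addition made after the data were examined, the SKOV3 ratios were 5.91 and 4.39, since the control value of ST3GAL5 is close to 0. A4GALT to B4GALNT1, the other pair of a globo-series and a ganglioside gene, was 2.32 and 4.43 in HeyC2 and 2.63 and 3.03 in SKOV3, and so was larger after TET1 in both lines, by 1.91 times in HeyC2 and 1.16 times in SKOV3. A4GALT was chosen for its rise in both lines, which enters every ratio that holds it, so nothing is read from this shared direction. In SKOV3 the counting intervals of this pair overlapped (1.91 to 3.57 and 2.54 to 3.62). Among the other pairs, UGCG to UGT8 was 39.1 and 32.4 in HeyC2 and 7.93 and 6.48 in SKOV3, so the lines differed more than the conditions. B4GALT5 to B4GALT6 was 2.44 and 3.05 in HeyC2 and 6.40 and 4.15 in SKOV3. B3GALNT1 to A4GALT was 0.97 in TET1-reprogrammed HeyC2, inside the counting interval of its control (0.90 to 1.60), and 0.70 and 0.41 in SKOV3. UGCG to SGMS1, whose enzyme takes ceramide to sphingomyelin instead, was 35.5 and 55.6 in HeyC2 and 8.14 and 4.94 in SKOV3.

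**Figure D4:**
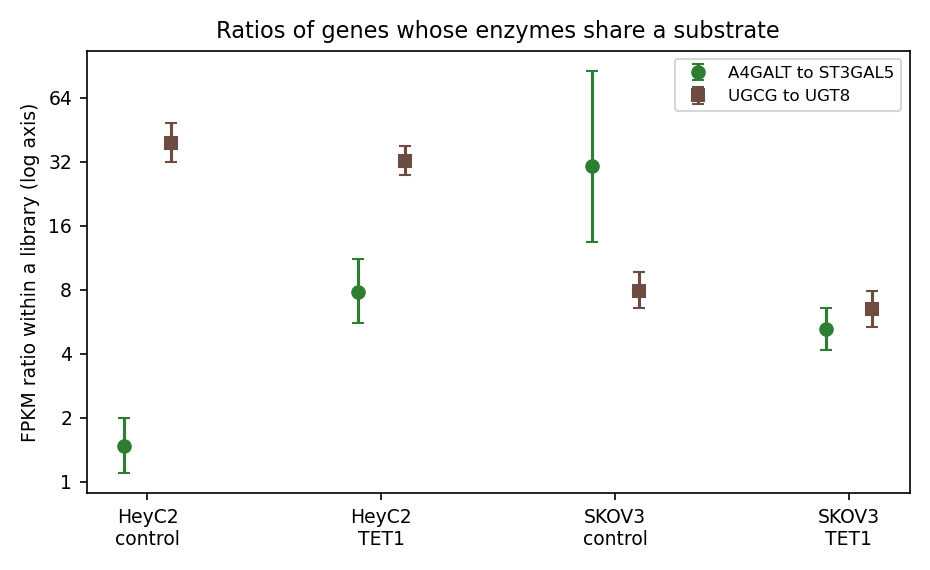
Ratio of FPKM within each library, on a log axis, for A4GALT to ST3GAL5 (circles) and UGCG to UGT8 (squares), with 95% intervals for counting error. The A4GALT to ST3GAL5 ratio runs from 1.48 in the HeyC2 control to 30.4 in the SKOV3 control, while the UGCG to UGT8 ratio falls into a higher pair for HeyC2 and a lower pair for SKOV3.

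Without the TET1 plasmid, the lines differed most in ST3GAL5 and UGCG among the genes of the set that could be compared. Relative to the all-gene median of the HeyC2 to SKOV3 control ratio (log2 -0.27 over 12488 genes), ST3GAL5 was 4.62-fold and UGCG 4.35-fold higher in HeyC2. ST3GAL5, at 0.20 FPKM and about 6.04 fragments in the SKOV3 control, reached the mean of 1 FPKM only through the HeyC2 control. It could therefore be compared only by being higher in HeyC2, and its rank here is a description. The limit here was 2-fold, which 18.6% of genes passed toward HeyC2 and 17.8% toward SKOV3. The remaining 6 genes that could be compared lay inside it, from 0.77 times for B4GALT5 to 1.86-fold for B4GALT6. A4GALT was at 1.08-fold and UGT8 at 0.95 times, so neither separated the controls. These control libraries also enter the TET1 comparisons above.

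The order of the levels within each library was similar at the top and differed below. In the HeyC2 control UGCG came first, followed by B4GALT5, B4GALT6, B3GALNT1, A4GALT, ST3GAL5, UGT8 and B4GALNT1. In the SKOV3 control UGCG and B4GALT5 stood side by side, at 36.8 and 33.2 FPKM, followed by A4GALT, B4GALT6, UGT8, B3GALNT1 and B4GALNT1, with ST3GAL5 below them. After TET1, A4GALT came next after UGCG and B4GALT5 in both lines. The spread that would separate neighbours in this order is not known from 1 library.

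Around the set, 78 further genes of ceramide, sphingomyelin, ganglioside and globoside metabolism were taken from 9 lists, and all were in the tables. In HeyC2, 59 passed the filter, of which 7 were higher and 5 lower, with a median relative log2 change of 0.03. In SKOV3, 61 passed, of which 6 were higher and 10 lower, with a median of -0.08. The shares of all genes called were 12.5% and 9.17% for HeyC2 and 20.7% and 18.2% for SKOV3. CERS4 and ST6GALNAC3 in HeyC2 and ST3GAL1 in SKOV3 reached the mean of 1 FPKM only through the TET1 library, and GAL3ST1 in SKOV3 reached it only through the control. CERS4, listed at 0 in the HeyC2 control, could pass only by being called higher. ST6GALNAC3 and ST3GAL1, at 0.93 and 0.81 FPKM in these controls, could pass only with a TET1 value above the control, which need not reach 1.5-fold. ARSA, the lysosomal arylsulfatase that acts on sulfatide, was the single gene higher in both lines among the 57 measured in both, where 3.56% of all genes were, at 9.23 and 17.5 FPKM in HeyC2 and at 14.0 and 28.7 in SKOV3. None of the 57 genes was lower in both lines, where 2.54% of all genes were.

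Among the ceramide synthesis genes, DEGS1, the dihydroceramide desaturase gene, was higher in HeyC2 (29.3 and 52.0 FPKM, relative log2 change 0.75), and ORMDL3, a brake on serine palmitoyltransferase, was higher in SKOV3 (42.9 and 99.5 FPKM). CERS4, a ceramide synthase gene, was listed at 0 in the HeyC2 control and stood at 5.02 FPKM after TET1. SPTSSA was lower in HeyC2, with a relative log2 change of -0.59, and SPTLC3, at -0.51 in SKOV3, was the lowest there and inside the limits. In the sphingomyelin list, the lowest were SMPD1, the acid sphingomyelinase gene, in HeyC2 (11.2 and 4.48 FPKM, -1.21) and SMPD2 in SKOV3 (17.4 and 8.35 FPKM, -1.16). No gene of that list was higher in either line, the highest being PLEKHA8 at 0.08 in HeyC2 and CERK at 0.26 in SKOV3. Beside 12.5% of all genes higher in HeyC2 and 20.7% in SKOV3, nothing is read from this absence among 8 genes.

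Of the later ganglioside steps, ST6GALNAC6, a sialyltransferase for the alpha-series gangliosides, was the highest in HeyC2 at 30.7 and 73.0 FPKM, with a relative log2 change of 1.16. ST3GAL1 was the highest in SKOV3, at 0.81 and 2.43 FPKM (0.73), and the lowest in HeyC2 (-0.07), while ST6GALNAC4 was the lowest in SKOV3 (-0.28). Of the lacto-series and fucosyl genes, B4GALT2 was the highest in HeyC2 (0.82) and the lowest in SKOV3 (-0.29). B3GALT5, which makes type 1 lacto chains and the stem of the globo-H antigen, was the highest in SKOV3, at 1.46 and 7.08 FPKM (1.52), and did not pass the filter in HeyC2. FUT4 was the lowest of that list in HeyC2, at -0.34. GAL3ST1, which sulfates the galactosylceramide made by UGT8, was listed at 0 in both HeyC2 libraries and was lower in SKOV3, at 2.35 and 0.65 FPKM (-1.22).

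Genes for breakdown had medians of -0.16 in HeyC2 and -0.29 in SKOV3 over 13 genes each, with ARSA the highest in both lines (0.79 and 0.80). GLA, the alpha-galactosidase that removes the galactose added by A4GALT, was at 22.2 and 19.9 FPKM in HeyC2 (-0.21) and at 25.3 and 15.5 in SKOV3, where it was the lowest of the list (-0.86). GLA passed the limit in SKOV3, and in HeyC2 its ratio of 0.89 had a counting interval of 0.72 to 1.11. NEU1, a lysosomal sialidase, was the lowest in HeyC2 (28.4 and 18.8 FPKM, -0.62). ASAH1, the acid ceramidase gene, was higher in HeyC2 (11.1 and 19.7 FPKM, 0.72) and lower in SKOV3 (54.9 and 36.6 FPKM, -0.76).

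Among the genes of sugar nucleotide supply, CMAS, which activates sialic acid, was the lowest in HeyC2 (83.0 and 39.9 FPKM, -1.09), and NANS, a sialic acid synthase, was the highest there (0.32) and the lowest in SKOV3 (55.6 and 32.1 FPKM, -0.96). UGDH, which draws UDP-glucose into UDP-glucuronate, was the highest in SKOV3 (26.4 and 48.1 FPKM, 0.65). Of the 4 genes for Golgi proteins known from screens for globotriaosylceramide synthesis, 0 were higher in HeyC2 and 0 in SKOV3, where 2 were lower. Beside 12.5% of all genes higher in HeyC2 and 20.7% in SKOV3, a count of 0 among 4 genes says nothing particular about them. For the 2 lower genes, the matching all-gene share was 18.2%, and with only 4 genes nothing is read from that count either. LAPTM4A was the lowest of these 4 genes in both lines, at 154 and 153 FPKM in HeyC2 (-0.06) and 251 and 138 in SKOV3 (-1.06), and the highest were TMEM165 in HeyC2 (0.33) and TM9SF2 in SKOV3 (-0.41). Of the related transferases, B3GALNT2 stayed inside the limits at 0.45 and 0.34, and A4GNT did not pass the filter.

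**Figure D5:**
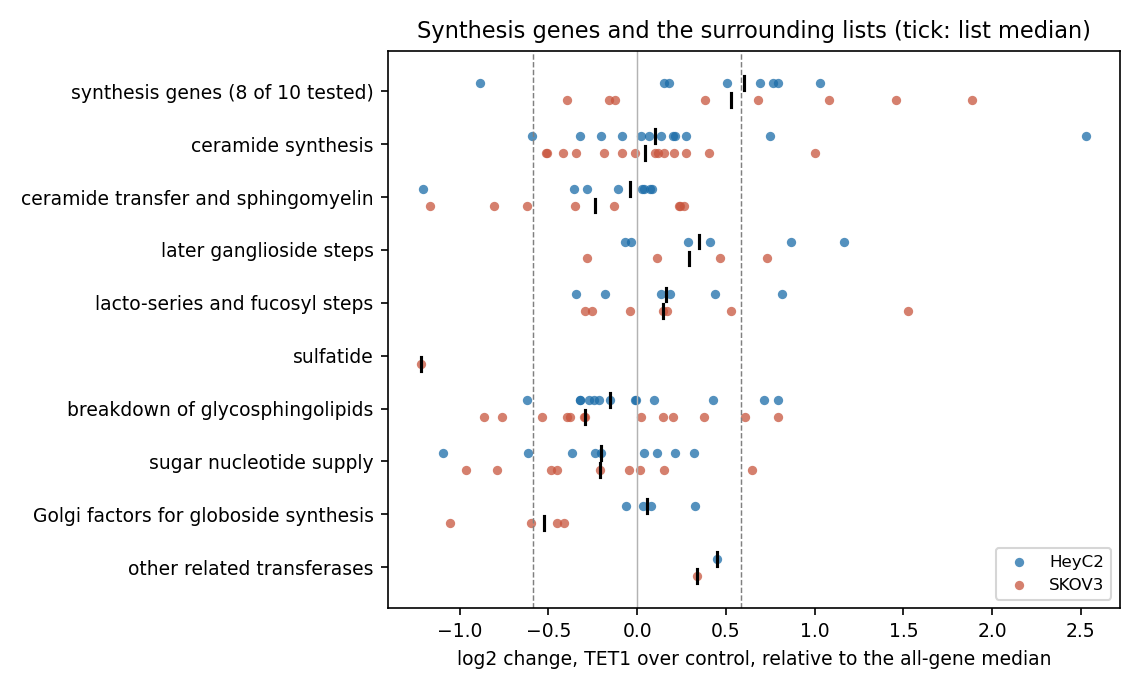
Relative log2 change, TET1 over control, of the 8 tested synthesis genes and of the tested genes of the 9 surrounding lists in HeyC2 (blue) and SKOV3 (red); each point is a gene, black ticks are list medians and dashed lines mark 1.5-fold. The medians of the synthesis genes are 0.60 and 0.53, the 4 Golgi factors in SKOV3 have a median of -0.52, and the point at 2.53 is CERS4, which was listed at 0 in the HeyC2 control. The medians of the synthesis genes include A4GALT, which was chosen for its change, and in SKOV3 ST3GAL5, which had to be higher to pass. They are therefore not a contrast with the lists.

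A4GALT lies on the minus strand of chromosome 22 (GRCh37, 43088127 to 43117304). It shares 74 exonic bases on the same strand with CYB5R3, whose annotated span (43011736 to 43116876) covers most of A4GALT. Reads from the shared bases cannot be separated by strand, and their part in the A4GALT value was not tested. CYB5R3 was at 95.4 and 107 FPKM in HeyC2 and at 137 and 139 in SKOV3. Its relative log2 changes of 0.11 and -0.17 were inside the limits in both lines. Of the next genes at higher coordinates, ARFGAP3 had relative changes of -0.02 in HeyC2 and 0.63 in SKOV3, PACSIN2 0.40 and -0.22, and TTLL1 0.20 and 1.42. None of the neighbours with a value above 0 was higher in HeyC2, and ARFGAP3 and TTLL1 were higher in SKOV3. Of all genes, 12.5% were higher in HeyC2 and 20.7% in SKOV3, and with so few neighbours nothing is read from these counts. The neighbour ATP5L2 was listed at 0 in all 4 libraries. The other genes of the set lie elsewhere in the genome. On GRCh37, B3GALNT1 is at chromosome 3, 160801671 to 160823199, and GBGT1 at chromosome 9, 136028335 to 136039320. The ganglioside genes are at chromosome 2, 86064243 to 86132322 for ST3GAL5, and at chromosome 12, 58017192 to 58027022 for B4GALNT1 and 22216707 to 22589975 for ST8SIA1. UGCG is at chromosome 9, 114659094 to 114697649, UGT8 at chromosome 4, 115519926 to 115599381, B4GALT5 at chromosome 20, 48249482 to 48330415, and B4GALT6 at chromosome 18, 29202209 to 29265799. The values cover the whole gene and do not separate exons or transcripts.

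The genes whose log2(FPKM + 1) over the 4 libraries, centred on each gene's mean, lay nearest to A4GALT were LOC284412, SLAIN1, EFNA3, SLC2A11 and UFSP1, at Euclidean distances of 0.14 to 0.20 among 11133 genes ranked. SLAIN1, for a microtubule-associated protein, was at 3.04 and 7.24 FPKM in HeyC2 and at 3.20 and 11.2 in SKOV3. EFNA3, for an ephrin ligand, was at 1.93 and 4.85 FPKM in HeyC2 and at 2.54 and 9.97 in SKOV3. A likeness over 4 libraries describes those libraries only.

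TET1 acts on cytosines next to guanines, so the CpG content of the promoters was described from RefSeq windows of 300 bases on GRCh38.p14, from 250 bases before to 50 after an annotated start. A window was found for 8 of the 10 genes, and none for B4GALT6 and B4GALNT1. The first listed window held 43 CpG in A4GALT, 48 in UGCG, 47 in B4GALT5, 36 in ST3GAL5, 35 in ST8SIA1, 30 in B3GALNT1, 20 in GBGT1 and 18 in UGT8. The median over 27305 genes was 14, and 95.1% of genes had fewer CpG than A4GALT. This background, also used for the motif below, was not filtered by gene type, while the genes of the set all code for proteins. UGCG, which was higher in HeyC2 alone, and B4GALT5, which was called in neither line, had more CpG than A4GALT. A4GALT has a second listed start, whose window held 6 CpG, and the listed windows of ST3GAL5 ran from 3 to 48. The motif GGGCGG, read on both strands with overlapping matches counted and each match holding a CpG of the count above, occurred 9 times in the first A4GALT window, and 0.44% of genes had as many. It was found at least once in 44.6% of all first windows and in 7 of the 8 genes, B3GALNT1 being the exception. DNA methylation was not analysed here.

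The stretches from 250 to 51 bases before the first listed start are shown for the globo-series genes that were higher in both lines and for ST3GAL5, which moved in opposite directions, so that their CpG density can be compared. All are 200 bases on the minus strand, 5′ to 3′, on GRCh38.p14, with CpG in capitals: A4GALT at chr22:42720921-42721120 with 27 CpG, B3GALNT1 at chr3:161105400-161105599 with 12, and ST3GAL5 at chr2:85889041-85889240 with 22.
A4GALT: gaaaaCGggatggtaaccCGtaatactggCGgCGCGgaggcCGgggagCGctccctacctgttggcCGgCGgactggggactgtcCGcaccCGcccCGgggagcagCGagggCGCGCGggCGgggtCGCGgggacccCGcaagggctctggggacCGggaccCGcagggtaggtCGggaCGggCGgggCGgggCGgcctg
B3GALNT1: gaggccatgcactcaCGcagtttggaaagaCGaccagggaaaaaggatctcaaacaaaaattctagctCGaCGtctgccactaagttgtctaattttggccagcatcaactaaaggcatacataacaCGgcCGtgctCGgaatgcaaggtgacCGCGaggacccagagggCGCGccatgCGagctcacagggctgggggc
ST3GAL5: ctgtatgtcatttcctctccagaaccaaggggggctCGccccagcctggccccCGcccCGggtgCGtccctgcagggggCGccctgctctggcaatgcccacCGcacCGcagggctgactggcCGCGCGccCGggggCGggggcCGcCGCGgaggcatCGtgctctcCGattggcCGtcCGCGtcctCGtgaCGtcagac
No letter here says whether a cytosine was methylated in these cells.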

How the data were processed

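RNA of 4 libraries was measured, 1 per condition and cell line. Per the labels, the authors sequenced paired-end TruSeq libraries, aligned them to hg19 with Bowtie2 2.2.6 and quantified FPKM with RSEM 1.2.17. The deposited FPKM of each TET1 column lay on multiples of 0.01 times a constant (100% of distinct values below 40 FPKM), which was recovered from these steps and GAPDH and divided out, because a pseudocount on columns of different scale lowers weak genes against strong ones. The annotation and filters are not given in the sources used here.

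Changes used a pseudocount of 1 and a mean of at least 1 FPKM, and fold changes are thus on the log2(FPKM + 1) scale, which understates the change of low genes. The median change of all tested genes was subtracted and the limit was 1.5-fold, or 2-fold between controls. Depth was estimated as the fragment number, 6610000 to 7480000, at which low FPKM of genes with 1 transcript fall on whole fragments, with transcripts shortened by 170 bases. Fragments per gene used the canonical GENCODE transcript on GRCh37. Symbols were matched for 23916 of 26506 genes, including all 10 members. Named genes were the 10 members, those of the lists past the limit in both lines the same way, the highest and lowest of each list, the 5 genes nearest to A4GALT and 3 coding neighbours on each side, of which 1 had no symbol in the tables. ASAH1, DEGS1, SGMS1, NMD3, SLC26A10, ST6GALNAC3 and A4GNT, which lie outside that rule, and the ratios between genes were chosen after their values were seen. The members and lists were chosen with earlier results of these data known. A planned comparison of protein sequences was not run. 1 gene of the marker lists is not reported here. Alternatives were pseudocounts of 0.1 and 0.01, no filter, a mean of 5 FPKM, TPM, the deposited scale, upper-quartile scaling, correction for GC content and length in 20 bins each, and limits of 2-fold and 1.2-fold. Scripts were tested on simulated data. Python 3.11.15, numpy 2.4.6, pandas 2.3.3, scipy 1.17.1 and matplotlib 3.10.9 were used.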

Additional observations from a re-analysis of the deposited data

Results flagged for a closer look

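2 genes passed the 1.5-fold limit in opposite directions in the cell lines, and neither difference was tested. They are 1 of the 8 genes of the set and 1 of the 57 surrounding genes measured in both lines, and over all genes measured in both 1.77% were higher in HeyC2 and lower in SKOV3 and 1.38% the reverse, so the count is near the background. For ST3GAL5 the relative log2 change in SKOV3 minus that in HeyC2 was 2.77, with about 6.04 fragments behind the SKOV3 control value. For ASAH1, the acid ceramidase gene, the same difference was -1.48.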

How the results depend on the processing

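A4GALT kept its direction under the 8 alternatives other than the limits, with relative log2 changes from 0.91 to 1.16 in HeyC2 and from 1.36 to 1.63 in SKOV3, and the number of genes of the set that were higher in both lines was 2 in each of these 8. At the 2-fold limit B3GALNT1 passed in neither line. The median of the set in HeyC2 moved to 0.71 on the deposited scale and 0.74 with a mean of at least 5 FPKM, and in SKOV3 to 0.40 without a filter and 0.71 with upper-quartile scaling. With a mean of at least 5 FPKM, which leaves fewer genes, 0 genes of the set were lower in HeyC2 and 2 were higher in SKOV3. In that setting 7.86% of all genes were lower in HeyC2 and 18.7% higher in SKOV3. Also with that filter, 1 gene of the set was higher in the HeyC2 control than in the SKOV3 control, and the matching all-gene share was not computed. Nothing is read from these counts. At 2-fold, which is a stricter limit, 1 gene of the set was higher and 0 lower in HeyC2, and at 1.2-fold 1 was lower in SKOV3. For the surrounding lists, the 2-fold limit left 2 higher and 2 lower in HeyC2 and 2 higher and 3 lower in SKOV3, and the 1.2-fold limit gave 15 and 13 in HeyC2 and 13 and 26 in SKOV3. The shares of all genes past 2-fold and 1.2-fold after TET1 were not computed, so nothing is read from the counts at these limits. With 1 FPKM added, an alternative chosen after the data were examined, the A4GALT to ST3GAL5 ratio was 5.19 in TET1-reprogrammed HeyC2 and 5.91 in the SKOV3 control. Of 107 values of single genes other than A4GALT, 5 moved beyond the counting interval and 0 changed the sign of a called value. Except where a sentence gives the cause, the cause was not tested. B4GALT5 passed the 1.5-fold limit in HeyC2 in 2 alternatives, which gave 5 higher genes. No paired analysis was possible within a line because each condition has 1 library and the labels give no replicate numbers, and no library could be left out for the same reason. A fit over both lines with the line as a block was not run. The depth limits ST8SIA1 and the SKOV3 control value of ST3GAL5 most.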
